A study of Mus musculus with 6 samples.

Results

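The semaphorins, plexins, Eph receptors and ephrins are guidance genes whose products steer growing axons, migrating cells and sprouting vessels. They were taken from the RNA-seq table of murine glioblastoma (GBM) tumors by gene symbol alone, as the genes whose symbol begins with Sema, Epha, Ephb, Efna or Efnb followed by a number, or with Plxn. This selected 52 of the 16729 genes of the table, namely 20 semaphorins, 9 plexins, 9 EphA receptors, 5 EphB receptors, 8 ephrins and 1 antisense transcript, Plxna4os1. The rule on symbols used no expression value, although the members were chosen with earlier results of these data known. All 52 passed the filter on low counts in each fit.

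Semaphorins are secreted or membrane-bound ligands, and plexins are their receptors. The secreted class 3 semaphorins mostly reach plexins through a neuropilin co-receptor, whereas Sema3e binds Plxnd1 directly. Ephrins are held on the cell surface, ephrin-A by a lipid anchor and ephrin-B by a transmembrane segment, and bind Eph receptor tyrosine kinases on the neighbouring cell, so that both cells can receive a signal. In the vasculature ephrin-B2 is known as a marker of arteries and Ephb4 as a marker of veins, and in the brain both families take part in wiring axons and synapses.

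All 6 tumors were grown from mG7080 cells, a gliomasphere culture from a mouse model of GBM, after injection into the brains of C57BL/6 mice (C57BL/6J by the methods). The hosts were WT or Esm1 KO, with 3 tumors each, and Esm1 encodes Endocan, a proteoglycan secreted by endothelial cells. By the methods only females were used, and the methods and the reporting summary give different age ranges for these young hosts. The deletion was in the host alone, so the injected tumor cells, which are a single line, kept Esm1, and each library mixes RNA of tumor cells with RNA of host cells. Libraries are called WT 1, WT 2 and WT 3 and KO 1, KO 2 and KO 3 after the tumor numbers of the labels. Each library held between 17632070 and 22241832 reads counted on genes. Levels are given in CPM, counts scaled to library size with edgeR's TMM factors, where 1 read corresponded to 0.0445 to 0.0570 CPM, and levels of different genes are compared only in FPKM, which also divides by gene length.

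Esm1, the deleted gene, was counted 25, 21 and 82 times in the libraries of WT hosts, in the order of their numbers, and 1, 24 and 4 times in those of KO hosts. The count in the library labelled KO 2 was near those of WT 1 and WT 2, which leaves its label in doubt without settling it. The injected tumor cells kept Esm1, and whether these reads came from them was not tested. Results are given with and without KO 2. The study's own results table holds columns for WT 1, WT 2, KO 1 and KO 3 alone. Comparisons therefore used these 4 libraries, all 6, or all but KO 2. They share libraries and are not independent of each other. A gene was called at an adjusted p under 0.05 in edgeR's quasi-likelihood test, adjusted by Benjamini-Hochberg over every gene that was tested.

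Over the 4 libraries, 7 of the 52 guidance genes were called. Efna4, Sema3b, Plxnb2 and Plxna3 fell in tumors of KO hosts, and Efnb2, Epha10 and Sema6b rose. The 4 that fell are 7.69% of the guidance genes, where 13.9% of all 16183 genes tested fell. The 3 that rose are 5.77%, where 2.87% of all genes rose. In either direction 13.5% were called, against 16.7% of all genes. The count in each direction is small, and neither share was tested against its background. The median log2 fold change (KO over WT) of the 52 genes was 0.36, with 32 above 0 and 20 below, beside a median of -0.03 over all genes. Efna4 alone was called at more than 4-fold lower (background 6.23%), and no guidance gene was called at more than 4-fold higher (background 0.451%). Without KO 1 the counts became 0 lower (background 5.62%) and 1 higher (0.503%), and without KO 3 they became 0 (1.54%) and 0 (0%). Leaving out WT 1 gave 8 lower (27.5%) and 25 higher (25.9%), and leaving out WT 2 gave 3 (12.5%) and 11 (6.91%). Such a fit leaves 1 group with a single library, whose spread is taken from the other group. DESeq2 called 6 lower and 17 higher guidance genes over the same 4 libraries (backgrounds 19.5% and 16.6%), and edgeR's exact test 7 and 17 (backgrounds 22.2% and 16.2%). Of all genes called, 17.1% were higher by the quasi-likelihood test, 45.9% by DESeq2 and 42.2% by the exact test.

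Over all 6 libraries no guidance gene was called (background 0% in each direction), and no gene of the table had an adjusted p under 0.184 in edgeR. At an unadjusted p under 0.05, 6 guidance genes were lower (11.5%, background 11.9%) and 16 higher (30.8%, background 15.2%). DESeq2 called 3 lower (Efna4, Ephb4 and Sema4b; background 2.46%) and 5 higher (Efnb2, Epha10, Sema4f, Sema6b and Sema6c; background 4.39%), and the exact test called Efna4 lower (background 0.285%) and Epha10 higher (background 0.464%). With KO 2 alone left out, the quasi-likelihood test called 7 lower (13.5%, background 28.3%) and 19 higher (36.5%, background 24.5%). Leaving out any one of the other 5 libraries gave 0 in each direction. Across the labelled groups, 7 guidance genes had their 3 KO libraries all below the 3 WT libraries (13.5%, background 14.6%) and 9 had them all above (17.3%, background 13.2%).

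**Figure D1:**
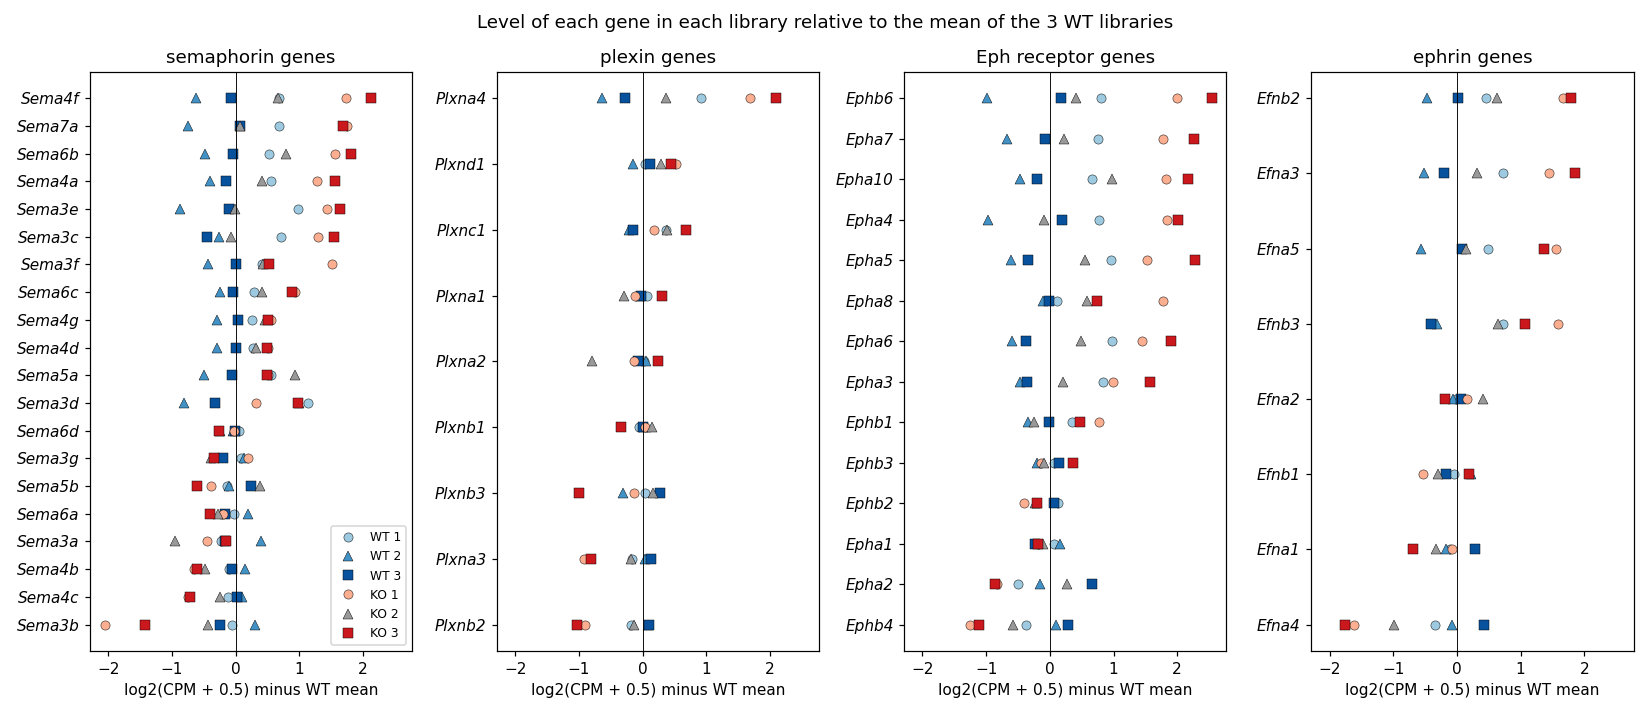
Level of 51 guidance genes (all but the antisense transcript Plxna4os1) in each of the 6 libraries, as log2(CPM + 0.5) minus the mean of the 3 WT libraries, 1 panel per family; blue points are WT hosts, orange and red points KO 1 and KO 3, and grey triangles the library labelled KO 2. KO 1 and KO 3 lie far to the right of the line for many Eph receptors and semaphorins and far to the left for Sema3b, Plxnb2, Plxna3, Ephb4 and Efna4, with KO 2 mostly nearer to the WT points.

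Among the 7 secreted class 3 semaphorins, 1 was called over the 4 libraries, in the lower direction. Sema3b, a neuropilin ligand on chromosome 9 of GRCm38 (107597674 to 107609241), stood at 13.5, 17.7 and 11.8 CPM in WT 1, WT 2 and WT 3 and at 3.02, 10.4 and 4.95 CPM in KO 1, KO 2 and KO 3. All 3 KO libraries lay below all 3 WT libraries, with KO 2 close under WT 3. Its log2 fold change was -1.98 over the 4 libraries (SE 0.36, adjusted p = 0.0362, edgeR) and -1.25 over all 6 (SE 0.47). Sema3f, which signals through Nrp2 and lies on the same chromosome (107681499 to 107710475), pointed the other way. It had 6.80, 3.57 and 5.03 CPM in the WT libraries and 15.2, 6.90 and 7.39 CPM in the KO libraries, so that the groups did not overlap but KO 2 and WT 1 nearly met. Its fold change of 1.11 (SE 0.51, adjusted p = 0.145, edgeR) did not pass over the 4 libraries. Sema3e, the Plxnd1 ligand that restrains vessel growth, had 22.0, 5.79 and 10.2 CPM in the WT libraries and 30.6, 10.9 and 35.4 CPM in the KO libraries. Here the groups overlapped, with KO 2 near WT 3. The other class 3 genes, Sema3a, Sema3c, Sema3d and Sema3g, had log2 fold changes between -0.43 and 1.13 over the 4 libraries, and Sema3c was called higher with KO 2 left out of the 6 (1.36, adjusted p = 0.0277, edgeR).

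The 13 membrane-bound semaphorins held 1 called gene. Sema6b, a transmembrane ligand of Plxna4 on chromosome 17 (56123085 to 56140343), had 70.9, 34.9 and 47.5 CPM in the WT libraries and 145, 85.2 and 173 CPM in the KO libraries. Every KO library lay above every WT library. The log2 fold change was 1.58 over the 4 libraries (SE 0.37, adjusted p = 0.0488, edgeR) and 1.38 over all 6 (SE 0.36). Sema7a, a lipid-anchored ligand of Plxnc1 and beta1 integrin, had the highest mean FPKM of all 52 genes (30.4). It stood at 92.0, 33.8 and 60.5 CPM in the WT libraries and at 195, 60.0 and 185 CPM in the KO libraries. KO 1 and KO 3 were the highest libraries, but KO 2 lay just under WT 3, and the fold change of 1.59 (SE 0.48, adjusted p = 0.0708, edgeR) was not called. Sema4d, the transmembrane ligand of Plxnb1, had 51.4, 34.6 and 42.8 CPM in the WT libraries and 60.4, 53.1 and 59.8 CPM in the KO libraries. The groups did not overlap, by a narrow margin between WT 1 and KO 2 (log2 fold change 0.47 over the 4 libraries). Within class 4 the directions were mixed, since Sema4b (-0.68) and Sema4c (-0.75) had their KO libraries all below the WT libraries, while Sema4g (0.53) had them all above and Sema4f (1.78) overlapped. With KO 2 left out, Sema4b and Sema4c were called lower, and Sema4a, Sema4f, Sema6b, Sema6c and Sema7a higher. Sema4d, Sema4g, Sema5a, Sema5b and Sema6d passed in none of the 3 comparisons, and neither did Sema6a, whose 3 KO libraries all lay below the WT libraries.

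**Figure D2:**
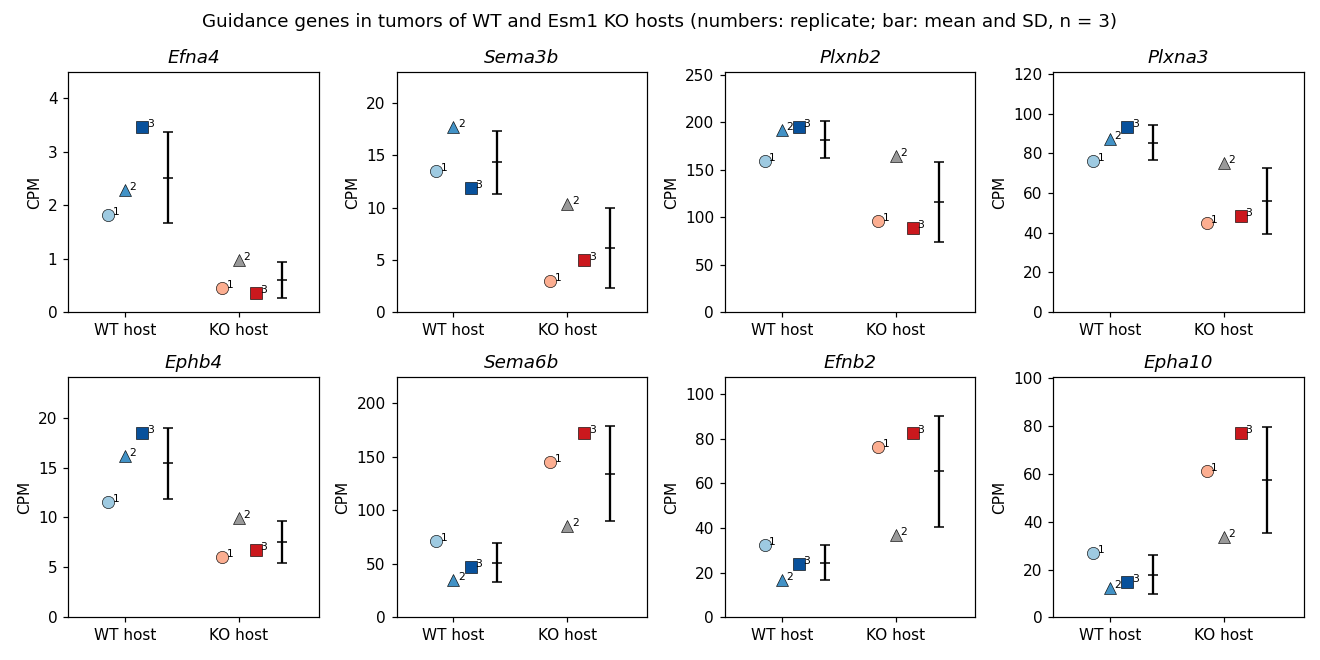
CPM of 8 guidance genes in each library by host group, with the replicate number beside each point and the group mean with its SD (n = 3) as a bar: the 7 genes called over WT 1, WT 2, KO 1 and KO 3, and Ephb4. KO 2 (grey triangle) lies between the other KO libraries and the WT libraries in each of the 8 panels except Plxnb2, where its 165 CPM falls between WT 1 and WT 2.

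Among the 9 plexins, the receptors of the semaphorins, 2 were called over the 4 libraries, and both fell. Plxnb2, the receptor of class 4 semaphorins (chromosome 15, 89155546 to 89182018), had the highest mean FPKM of the plexins (23.8). It stood at 159, 192 and 195 CPM in the WT libraries and at 96.1, 165 and 88.4 CPM in the KO libraries. KO 1 and KO 3 lay below all WT libraries, while KO 2 lay above WT 1. The log2 fold change was -0.94 over the 4 libraries (SE 0.21, adjusted p = 0.0448, edgeR) and -0.66 over all 6 (SE 0.27). Plxna3, a receptor of class 3 semaphorins on chromosome X (74328290 to 74344689), had 75.9, 86.9 and 93.0 CPM in the WT libraries and 44.8, 75.0 and 48.2 CPM in the KO libraries. The groups did not overlap, although KO 2 came within 1 CPM of WT 1. Its fold change was -0.82 over the 4 libraries (SE 0.17, adjusted p = 0.0423, edgeR) and -0.63 over all 6 (SE 0.23).

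The plexins of the named pairs were not called over the 4 libraries. Plxnd1, the endothelial receptor of Sema3e, had 95.6, 83.8 and 101 CPM in the WT libraries and 135, 114 and 127 CPM in the KO libraries, with no overlap (log2 fold change 0.53, SE 0.18, adjusted p = 0.0842, edgeR, 4 libraries). It was called higher with KO 2 left out (0.49, adjusted p = 0.0308, edgeR). Plxnb1, the Sema4d receptor, had 162, 176 and 169 CPM in the WT libraries and 174, 187 and 133 CPM in the KO libraries, and the groups overlapped. Plxnc1, the Sema7a receptor, overlapped as well, at 79.5, 52.8 and 55.4 CPM in the WT libraries and 69.8, 79.8 and 99.0 CPM in the KO libraries. Plxna4, a receptor of class 3 and class 6 semaphorins, had the largest fold change of the family (1.57, SE 0.53, adjusted p = 0.0829, edgeR) and was called higher with KO 2 left out (1.76, adjusted p = 0.026, edgeR). The antisense transcript Plxna4os1 (chromosome 6, 32511141 to 32515576) lies inside Plxna4 (32144543 to 32588192). Whether reads were counted by strand is not given in the sources used here, so its 9 to 33 counts per library cannot be told apart from Plxna4 reads.

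The 8 ephrins held the largest fall and 1 of the 3 rises. Efna4, a lipid-anchored ligand of EphA receptors (chromosome 3, 89333393 to 89338028), was among the low genes, with a mean of 1.02 FPKM. It had 1.81, 2.27 and 3.45 CPM in the WT libraries and 0.456, 0.979 and 0.364 CPM in the KO libraries. The groups did not overlap, and KO 2 was the highest KO library. The log2 fold change was -2.31 over the 4 libraries (SE 0.44, adjusted p = 0.0376, edgeR) and -2.06 over all 6 (SE 0.49), and without WT 2 the 4-library call was lost (-2.13). Efna1, Efna3 and Efna4 are neighbours on the minus strand within 66.3 kb of chromosome 3 (89271730 to 89338028), and their fold changes over the 4 libraries were -0.25, 1.46 and -2.31. Efna1, an EphA2 ligand, had 4.38, 4.19 and 5.87 CPM in the WT libraries and 4.51, 3.69 and 2.76 CPM in the KO libraries, with overlap. Efna3, whose groups also overlapped, was called higher with KO 2 left out (1.61, adjusted p = 0.0213, edgeR).

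Efnb2, the transmembrane ligand of Ephb4 and a marker of arteries (chromosome 8, 8617235 to 8661242), stood at 32.6, 16.8 and 23.9 CPM in the WT libraries and at 76.3, 36.9 and 82.8 CPM in the KO libraries. Each KO library lay above each WT library, and KO 2 exceeded WT 1 by little. WT hosts averaged 24.4 ± 7.89 CPM (SD, n = 3), and KO hosts averaged 65.4 ± 24.8 CPM (SD, n = 3). The log2 fold change was 1.68 over the 4 libraries (SE 0.34, adjusted p = 0.0406, edgeR), 1.41 over all 6 (SE 0.38) and 1.71 with KO 2 left out (adjusted p = 0.00956, edgeR). Efnb3, a ligand of EphB receptors and Epha4, had the highest mean FPKM of the ephrins (25.2). Its levels were 83.6, 40.8 and 37.8 CPM in the WT libraries and 153, 79.5 and 107 CPM in the KO libraries, so that WT 1 lay above KO 2. Efnb1, the Ephb2 ligand, overlapped at 20.7, 24.9 and 19.0 CPM in the WT libraries and 14.5, 17.3 and 24.5 CPM in the KO libraries. In these bulk tumors, fewer cells of a type and less RNA per cell cannot be told apart, which holds for every level given here.

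The Eph receptors had the highest median log2 fold change of the families, 1.22 over the 4 libraries, beside 0.54 for ephrins, 0.42 for semaphorins and 0.02 for plexins. Of the 14 receptors, 10 were above 0 and 1 was called. Epha10, an EphA receptor without kinase activity (chromosome 4, 124881530 to 124917801), had the highest mean FPKM of the family (29.0). It stood at 27.0, 12.1 and 14.6 CPM in the WT libraries and at 61.2, 33.8 and 77.2 CPM in the KO libraries, with no overlap. The log2 fold change was 1.81 over the 4 libraries (SE 0.41, adjusted p = 0.0465, edgeR) and 1.67 over all 6 (SE 0.42), and it was the only guidance gene still called without KO 1. Ephb6, the EphB receptor without kinase activity, had the largest fold change of the 52 genes in the higher direction (2.13, SE 0.62) and was not called (adjusted p = 0.0665, edgeR). Epha8 had 5.42, 4.60 and 4.93 CPM in the WT libraries and 18.4, 7.70 and 8.64 CPM in the KO libraries, with no overlap and with KO 1 far above the others. Epha4, Epha5, Epha6, Epha7, Epha8 and Ephb6 were called higher when KO 2 was left out, with fold changes between 1.44 and 2.14.

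Ephb4, the ephrin-B2 receptor that marks veins (chromosome 5, 137350109 to 137374522), was the receptor with the largest fold change in the lower direction. It had 11.6, 16.2 and 18.5 CPM in the WT libraries and 6.05, 9.93 and 6.72 CPM in the KO libraries. All KO libraries lay below all WT libraries, and the log2 fold change was -1.13 over the 4 libraries (SE 0.30, adjusted p = 0.0577, edgeR) and -1.05 over all 6 (SE 0.29). With KO 2 left out it was called lower (-1.27, adjusted p = 0.0151, edgeR). Epha2 had 2.00, 2.69 and 5.08 CPM in the WT libraries and 1.48, 3.78 and 1.46 CPM in the KO libraries, where WT 3 and KO 2 were highest and the groups overlapped. Ephb2 overlapped too, with 22.7, 17.9 and 21.8 CPM in the WT libraries and 15.5, 17.5 and 18.0 CPM in the KO libraries.

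**Figure D3:**
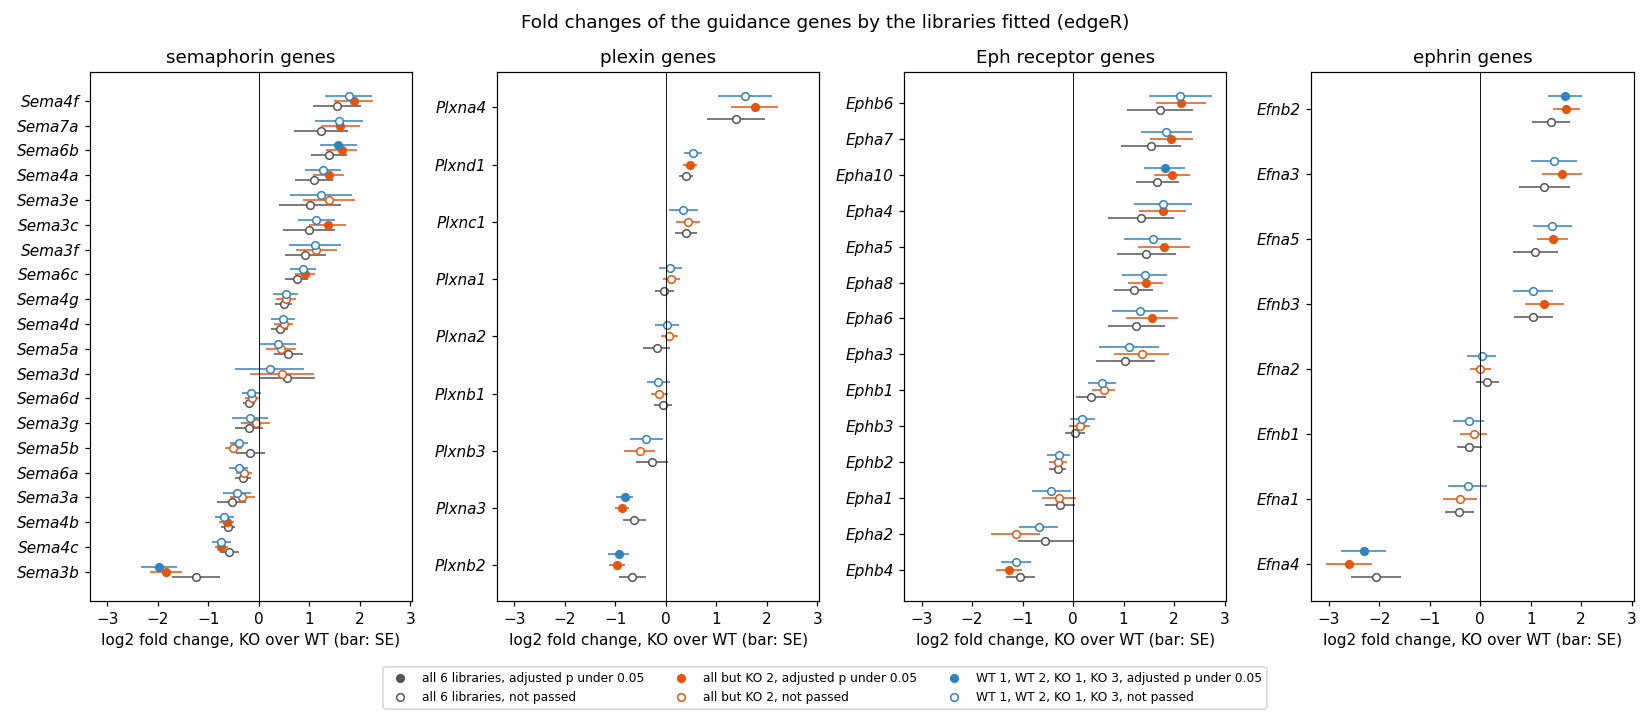
Log2 fold change (KO over WT, edgeR) of 51 guidance genes with its SE as a bar, from all 6 libraries (grey), all but KO 2 (orange) and WT 1, WT 2, KO 1 and KO 3 (blue); filled points passed an adjusted p of 0.05. No grey point is filled, 7 blue points and 26 orange points are, and the filled points lie on both sides of 0.

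The promoters of 4 of these genes are shown because they carry the opposite directions of an ephrin and its receptor (Efnb2, Ephb4), the Eph receptor called higher over the 4 libraries (Epha10) and the largest fall (Efna4). Each is the RefSeq sequence of GRCm38.p6 from 250 bases before to 50 bases after an annotated start site, 5′ to 3′ on the gene's strand, with CG dinucleotides in capitals. For Epha10 the start site used lies inside the gene interval given above, which begins 5 bases before the window. They lie at chr8:8661193-8661492 (minus strand, Efnb2), chr5:137349859-137350158 (plus strand, Ephb4), chr4:124881535-124881834 (plus strand, Epha10) and chr3:89337979-89338278 (minus strand, Efna4).
Efnb2: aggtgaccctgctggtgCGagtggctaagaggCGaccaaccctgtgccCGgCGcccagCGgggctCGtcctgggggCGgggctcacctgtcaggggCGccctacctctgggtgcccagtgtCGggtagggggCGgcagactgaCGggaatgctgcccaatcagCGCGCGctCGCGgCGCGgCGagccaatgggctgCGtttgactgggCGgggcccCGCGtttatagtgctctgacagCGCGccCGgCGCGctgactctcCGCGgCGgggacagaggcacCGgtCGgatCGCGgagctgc
Ephb4: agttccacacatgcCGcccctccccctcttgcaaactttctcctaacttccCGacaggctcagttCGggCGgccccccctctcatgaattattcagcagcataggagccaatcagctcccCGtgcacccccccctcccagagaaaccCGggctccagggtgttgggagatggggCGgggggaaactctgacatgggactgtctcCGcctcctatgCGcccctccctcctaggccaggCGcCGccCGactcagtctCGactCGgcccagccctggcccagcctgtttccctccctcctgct
Epha10: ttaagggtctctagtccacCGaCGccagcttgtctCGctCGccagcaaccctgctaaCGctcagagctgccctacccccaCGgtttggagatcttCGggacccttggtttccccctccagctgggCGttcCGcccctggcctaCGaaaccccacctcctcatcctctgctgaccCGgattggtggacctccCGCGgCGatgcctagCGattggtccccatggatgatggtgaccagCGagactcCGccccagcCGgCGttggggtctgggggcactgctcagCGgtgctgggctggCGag
Efna4: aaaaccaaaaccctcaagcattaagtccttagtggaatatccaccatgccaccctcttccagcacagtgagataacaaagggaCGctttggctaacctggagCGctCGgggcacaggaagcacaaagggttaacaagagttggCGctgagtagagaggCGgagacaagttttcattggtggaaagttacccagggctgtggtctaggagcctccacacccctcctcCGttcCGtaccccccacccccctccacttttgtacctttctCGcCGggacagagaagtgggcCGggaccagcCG

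These windows hold 35 CG dinucleotides for Efnb2, 14 for Ephb4, 21 for Epha10 and 11 for Efna4. The reference table had 59 promoters for 45 of the 52 guidance genes, with a median of 20 CG dinucleotides, against 19 over the promoters of all genes tested and 7 over all promoters of the same length. The letters CACGTG, an E-box that reads the same on both strands, were found in 4 of the 59 promoters (6.78%), against 9.28% of promoters of tested genes and 7.15% of all promoters. They were those of Epha8, Sema3e, Sema4b and Sema6d, none of which was called over the 4 libraries. With KO 2 left out of the 6, Epha8 was called higher and Sema4b lower. Sema4b and Sema6d each had another promoter without these letters.

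Ligands and receptors were paired to ask whether both sides of a known interaction moved together. Of 38 pairs, 0 had both members called over the 4 libraries. By the sign of the fold change, 15 pairs had both members higher, 5 had both lower, 11 had a higher ligand with a lower receptor, and 7 had a lower ligand with a higher receptor. Pairs share ligands and receptors, so these counts are not of independent items. The ratio of ligand CPM to receptor CPM was then compared between libraries, in which gene length cancels. In 7 pairs (18.4%) the 3 KO ratios all lay above the 3 WT ratios, in 2 pairs (5.26%) they all lay below, and in 29 pairs the groups overlapped. Ratios of other gene pairs were not computed, so these shares have no background. After Benjamini-Hochberg adjustment over the 38 pairs the smallest adjusted p was 0.422 (exact permutation test). With 3 against 3 libraries this test gives no p under 0.1, so no pair could have been called, whatever its ratios. The adjusted values therefore decide nothing about any pair.

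Efnb2 with Ephb4 and Sema3f with Plxna3 were the pairs in which the KO libraries lay all above the WT libraries for the ligand and all below for the receptor. Efnb2 over Ephb4 was 2.82, 1.04 and 1.29 in WT 1, WT 2 and WT 3 and 12.6, 3.72 and 12.3 in KO 1, KO 2 and KO 3. Every KO ratio exceeded every WT ratio, by 2.35 between the means of the log2 ratio, and an exact permutation test (two-sided) gave p = 0.1, the smallest that 3 against 3 libraries allow. The summed CPM of 12 endothelial cell markers overlapped between the groups, at 242, 301 and 298 in the WT libraries and 296, 268 and 230 in the KO libraries, and none of these markers was at 0. The 8 mural cell markers summed to 321 to 414 CPM in the WT libraries and to 210, 440 and 146 CPM in KO 1, KO 2 and KO 3. Cspg4, which oligodendrocyte progenitors also express and which was singled out after its values were seen, gave 194, 241 and 212 CPM of that sum in the WT libraries and 46.1, 303 and 28.5 CPM in KO 1, KO 2 and KO 3. The other 7 mural markers together overlapped between the groups, at 127, 173 and 202 CPM in the WT libraries and 164, 137 and 118 CPM in the KO libraries. Over the 6 libraries, Spearman's rho with the summed level of 16 neuron markers was 0.943 for Efnb2 and -0.829 for Ephb4. Both are given as a description because the values come from the same libraries. The part of these cell types in the ratio was not tested. Sema3f over Plxna3 was 0.0897, 0.0410 and 0.0541 in the WT libraries and 0.340, 0.0920 and 0.153 in the KO libraries (exact permutation test, p = 0.1), where KO 2 barely exceeded WT 1. Efnb2 over Ephb1 was also higher in each KO library, with ratios of 0.596, 0.502 and 0.564 in the WT libraries and 1.05, 1.03 and 1.39 in the KO libraries (exact permutation test, p = 0.1).

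The other named pairs overlapped. Sema7a over Plxnc1 was 1.16, 0.641 and 1.09 in the WT libraries and 2.79, 0.751 and 1.87 in the KO libraries (exact permutation test, p = 0.3), with KO 2 inside the WT range. Sema4d over Plxnb1 ran from 0.197 to 0.317 in the WT libraries and from 0.285 to 0.449 in the KO libraries (p = 0.2, same exact test). For Sema3e over Plxnd1 (exact permutation p = 0.5), Efna1 over Epha2 (0.9) and Efnb1 over Ephb2 (0.6) the libraries were interleaved. The 2 pairs with lower ratios in KO hosts were Sema3a over Plxna1 and Sema3a over Plxna4, and in the latter the WT ratios of 0.441, 2.04 and 1.06 stood against 0.220, 0.388 and 0.206. Sema3a itself overlapped between the groups.

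**Figure D4:**
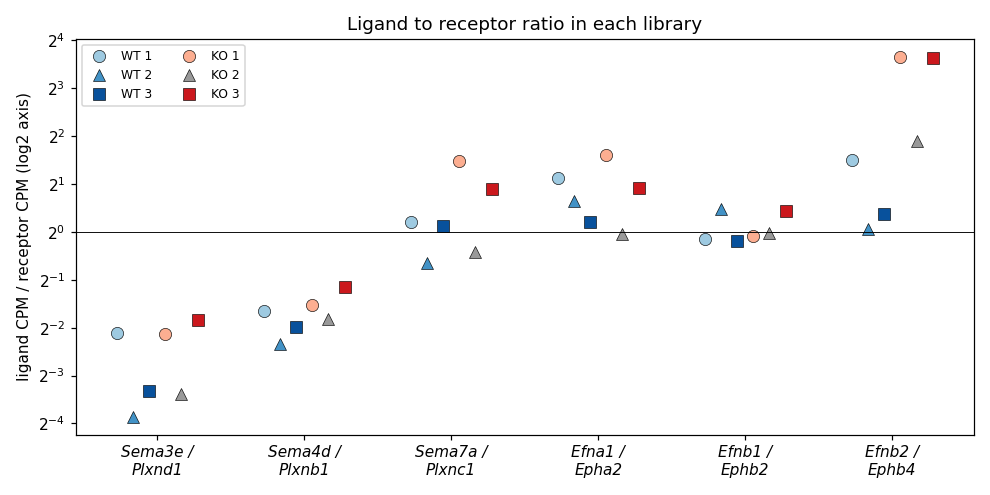
Ratio of ligand CPM to receptor CPM in each of the 6 libraries for 6 pairs (log2 axis; blue, WT hosts; orange, red and grey, KO 1, KO 3 and KO 2). For Efnb2 over Ephb4 the KO ratios of 3.72 to 12.6 lie above the WT ratios of 1.04 to 2.82, and for the other 5 pairs the groups overlap.

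The other genes of these pathways were taken from a list of 36 co-receptors and signalling partners. Over the 4 libraries 3 fell (background 13.9%) and 1 rose (background 2.87%), with a median log2 fold change of -0.04. The genes that fell were Itgb1, the beta1 integrin that serves as a Sema7a receptor (-2.12, SE 0.34, adjusted p = 0.0343, edgeR), Dpysl3 of the family that relays class 3 semaphorin signals (-1.55), and Inppl1, a lipid phosphatase that binds EphA2 (-1.03). Dpysl4, another member of that relay family, rose (1.68, SE 0.30, adjusted p = 0.0348, edgeR), so that the Dpysl genes did not share a direction. The neuropilins were not called, with fold changes of -0.05 for Nrp1 and -0.52 for Nrp2. Over all 6 libraries 0 of the 36 were called by edgeR's quasi-likelihood test (background 0% in each direction). At an unadjusted p under 0.05 in that test, 4 were lower (background 11.9%) and 7 higher (background 15.2%). DESeq2 called 2 lower (background 2.46%) and 3 higher (background 4.39%) over all 6. With KO 2 left out of the quasi-likelihood fit, 8 were lower (background 28.3%) and 14 higher (background 24.5%).

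A separate list of 21 netrin, slit and repulsive guidance genes, which belong to other guidance systems, had a median log2 fold change of 0.91 over the 4 libraries, beside 0.36 for the 52 genes. Of these, 2 fell (background 13.9%) and 0 rose (background 2.87%), with 10 higher at an unadjusted p under 0.05 in edgeR (background 19.9%). Ntn1, the netrin-1 ligand, had a fold change of -1.91 (SE 0.41, adjusted p = 0.0430, edgeR), and Rgma, a ligand of neogenin, one of -0.78 (SE 0.17, adjusted p = 0.0433, edgeR). The Slit ligands had fold changes of 1.18 (Slit1), 1.63 (Slit2) and 1.53 (Slit3) and were not called.

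Summed by family, the Eph receptors stood at 440, 202 and 302 CPM in the WT libraries and at 762, 326 and 968 CPM in the KO libraries. The semaphorins summed to 791, 585 and 639 CPM in the WT libraries and to 1012, 737 and 1049 CPM in the KO libraries. In both sums KO 1 and KO 3 were the highest libraries, and KO 2 lay below WT 1. The ephrins did the same, with 186, 112 and 121 CPM in the WT libraries and 324, 176 and 295 CPM in the KO libraries. The plexin sum lay between 1007 and 1061 CPM in the WT libraries and between 969 and 1108 CPM in the KO libraries.

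Neuron markers moved with the Eph receptor and semaphorin sums, and proliferation genes moved against them. The 16 neuron markers, none of which was at 0 in any library, summed to 7017, 2868 and 4359 CPM in the WT libraries and to 14715, 6110 and 17517 CPM in the KO libraries. This ranks the libraries KO 3, KO 1, WT 1, KO 2, WT 3 and WT 2, and the sums of the Eph receptors and of the semaphorins rank them in the same way. The 20 proliferation genes gave the exact reverse, with 1790, 3244 and 3028 CPM in the WT libraries and 229, 1980 and 110 CPM in the KO libraries. Ranked one by one, 10 of the 52 guidance genes (19.2%) had the order of the neuron markers, against 10.9% of the genes tested, and 0 had the reverse, against 6.62%. The 10 were Epha3, Epha5, Epha6, Epha7, Ephb6, Efna3, Plxna4, Sema3e, Sema4a and Sema4f, so 4 of the 9 EphA receptors were among them. Over the 6 libraries, Spearman's rho with the neuron sum had a median of 0.943 for EphA receptors, 0.714 for semaphorins, 0.371 for ephrins and 0.143 for plexins, and of -0.0857 for all genes, given as a description because the values come from the same libraries. The 3 genes that rose over the 4 libraries, Efnb2, Epha10 and Sema6b, each had a rho of 0.943. The 4 that fell had the opposite sign, at -0.943 for Plxnb2, -0.886 for Efna4, -0.829 for Plxna3 and -0.771 for Sema3b, and so did Ephb4 (-0.829). The called genes were chosen for a difference between KO 1 and KO 3 and WT 1 and WT 2. The neuron sum also ranks KO 1 and KO 3 above WT 1 and WT 2. The sign of rho for the called genes thus follows largely from their choice and is only a description. The sums of myelinating oligodendrocyte markers (12 genes) and astrocyte markers (10 genes) were likewise higher in KO 1 and KO 3 than in any WT library. The former ran from 1406 to 3613 CPM in WT and 3426 to 7982 CPM in KO libraries. The astrocyte sum ran from 2228 to 3435 CPM and from 4066 to 6746 CPM. Slc1a2 alone gave 4144 CPM of it in KO 1 and 3755 CPM in KO 3. Of the 10 astrocyte markers, 8 had log2 fold changes above 0 over the 4 libraries and 2 below, among them Agt (-3.18). Microglia and macrophage markers (12 genes) summed to 1210 to 1274 CPM in the WT libraries and to 810, 1683 and 718 CPM in KO 1, KO 2 and KO 3. The 9 markers of oligodendrocyte progenitors and proneural tumor cells summed to 3052 to 3836 CPM in the WT libraries and to 1290, 3964 and 911 CPM in KO 1, KO 2 and KO 3. The part of these cell types and of proliferation in the guidance gene results was not tested.

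**Figure D5:**
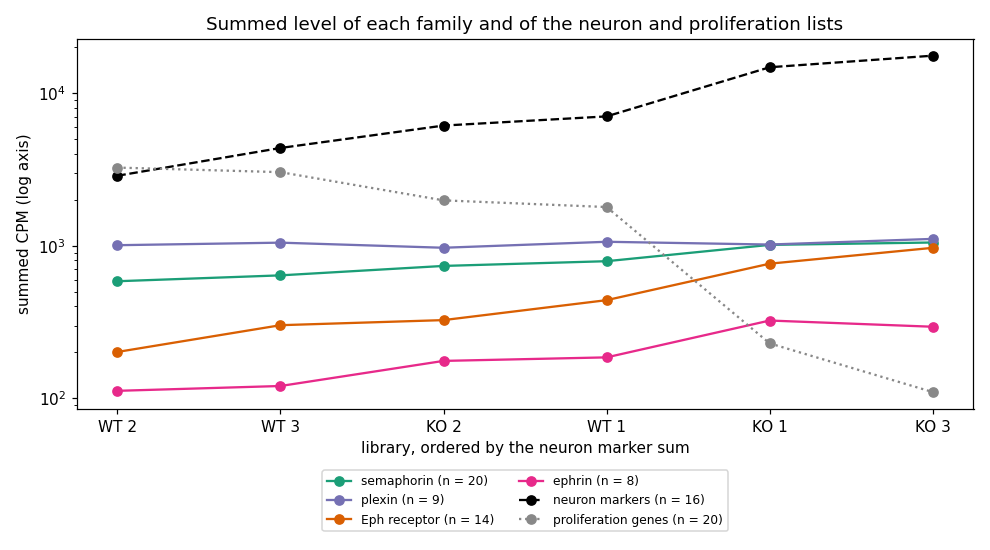
Summed CPM (log axis) of the 4 guidance families, 16 neuron markers (dashed) and 20 proliferation genes (dotted) in each library, with libraries ordered by the neuron sum; lines only join the points. The Eph receptor and semaphorin sums rise in the same order as the neuron sum, from 202 to 968 CPM and from 585 to 1049 CPM, while the plexin sum stays between 969 and 1108 CPM.

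The 7 genes called over the 4 libraries were then read in WT 3 and KO 2, which that fit had not used. WT 3 lay nearer to the mean of WT 1 and WT 2 than to that of KO 1 and KO 3 for all 7. KO 2 lay nearer to the WT mean for 6 of them, all but Efna4, yet on the KO side of all 3 WT libraries for the same number, all but Plxnb2. Over all genes called, WT 3 was nearer to the WT mean for 99.5% of those that fell and 98.7% of those that rose. KO 2 was nearer to the WT mean for 96.9% of those that fell and 85.1% of those that rose. It lay below all 3 WT libraries for 763 of the 2244 genes that fell and above them for 333 of the 464 that rose.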

How the data were processed

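Tumor RNA of 3 WT and 3 Esm1 KO hosts was sequenced. The deposited counts are whole reads per gene, made by the authors without normalization. The deposited table also holds the authors' FPKM, used here only to rank genes by level, and a normalized signal, each library's counts times 1 factor by the authors, which was not used. Its fold changes, p-values, false discovery rates and ratios per KO library are the authors' own comparisons and were not used. The submitters' processing notes name CASAVA 1.8.2, edgeR and mm10, whereas the methods name HTSeq with a human hg38 RefSeq annotation; the labels name the NEBNext Ultra kit and the methods the Ovation Ultralow kit. No gene of the table lacks counts in more than 2 libraries, and each reaches 5 counts in some library.

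Counts were fitted on the whole table in R 4.3.3 with edgeR 4.0.16 (filterByExpr with a minimum count of 10 and a minimum total of 15, TMM factors, glmQLFit and glmQLFTest, Benjamini-Hochberg adjustment over all genes tested), and SEs were derived from the fold change and its F value. Alternatives were RLE and upper quartile factors, no filter and a mean of at least 10 counts, DESeq2 1.42.0 without independent filtering, edgeR's exact test, limma-voom (limma 3.58.1), each library left out in turn, and the replicate number as a block. Ligand and receptor pairs were compared by an exact permutation test over the 6 libraries. Per library, totals were 17632070 to 22241832 counts, and the precision of 1 read covers counting error only. Within each labelled group, no libraries were duplicates of each other. Libraries of WT hosts were not compared with libraries of KO hosts in that check. In simulated counts with a dispersion of 0.03, the 6-library fit recovered 83% of the genes given a 2-fold change. It recovered 100% of those given 4-fold, with 11 false calls among 16191 genes. The 4-library fit recovered 61% and 100%, with 8 among 16179. The simulated libraries shared a common profile, and their dispersion was set rather than estimated from these data. These shares therefore do not give the power of the fits on the real libraries, where the 6-library fit called no gene.

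Values in every library are given for the guidance genes called over the 4 libraries, the gene with the highest FPKM of each family, 6 named pairs, and up to 8 genes whose labelled groups do not overlap, by largest difference of log2 means; other genes named were chosen after their values were seen. The members and all gene lists were chosen with earlier results of these data known. Positions and promoters come from RefSeq on GRCm38.p6, matched by symbol for 52 and 45 genes. Figures were drawn with matplotlib 3.10.9 in Python 3.11.15.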

Additional observations from a re-analysis of the deposited data

How the results depend on the processing

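Under RLE or upper quartile factors, no filter and the filter at a mean of 10 counts, the same 7 guidance genes were called over the 4 libraries, and limma-voom added Sema4f. The exact test gave 7 lower and 17 higher there, DESeq2 6 and 17, and with each library left out in turn the counts ran from 0 to 8 lower and from 0 to 25 higher. Over all 6 libraries, where 0 were called, DESeq2 gave 3 lower and 5 higher, the exact test 1 and 1, and leaving out each library 0 to 7 and 0 to 19, the highest being without KO 2. For the 36 co-receptors and partners, DESeq2 and the exact test gave 6 and 6 lower and 12 and 10 higher over the 4 libraries, with 0 to 9 and 0 to 13 by leaving out each library. Over all 6, DESeq2 gave 2 lower and 3 higher (backgrounds 2.46% and 4.39%), and the exact test 0 and 1 (backgrounds 0.285% and 0.464%). Leaving out each library gave 0 to 8 lower (background 0% to 28.3%) and 0 to 14 higher (background 0% to 24.5%). The cause of these differences between tests was not tested. With each library left out in turn, 3 of the guidance genes followed under every setting, all uncalled, changed sign. The log2 fold change of Plxnb1 ran from -0.13 to 0.074 over all 6 libraries and from -0.34 to 0.044 over the 4, in both cases above 0 without KO 3. That of Efna1 ran from -0.63 to 0.077 (above 0 without KO 3) and that of Efnb1 from -0.64 to 0.11 (above 0 without KO 1), over the 4 libraries. The median log2 fold change of the 52 genes, followed across settings after its value was seen, stayed above 0 in all, between 0.07 without WT 2 and 0.72 without WT 1 over the 4 libraries. Same-numbered libraries of the 2 groups had correlations of 0.602, 0.642 and -0.25 between their deviations from the group means, so the numbers were not taken to pair the samples, and with a replicate block 0 guidance genes were called lower and 0 higher over all 6 libraries. Depth limits the genes of low level, such as Efna4 and Plxna4os1, where 1 read is worth up to 0.0570 CPM, and the doubt on the label of KO 2 limits every value over all 6 libraries. Over the 4 libraries no replicate block was fitted, since their labelled numbers pair only WT 1 with KO 1.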
